A study of Mus musculus with 6 samples.

Results

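The genes described here are 10 enzymes of xenobiotic metabolism, Fmo1, Fmo2, Ces1d, Cyp1b1, Selenbp1, Inmt, Cbr2, Ephx1, Aox3 and Por, followed through lung fibroblasts (FBs) and organoid cells. They were chosen by symbol, with earlier results of these data known. All 10 have a row in each of the 6 count tables, out of 20490 gene symbols that the 6 tables share. Each table is 1 droplet single-cell RNA library of a pool of 3 mice per cell source, so each condition has 1 library. GFP+ lung cells were sorted from male Pdgfra-GFP mice (PDGFRa-EGFP in the repetitive-dose labels), which carry a nuclear EGFP at the Pdgfra locus and were 10 to 14 weeks old. The single-dose animals received PBS or bleomycin once by oropharyngeal aspiration and were taken on day 14. Their bleomycin dose is given as 4 U/kg in the treatment label and as 2 U/kg in the protocol. The repetitive-dose animals were dosed weekly for 3 weeks with PBS or with bleomycin, of which they received 1 U/kg in each of the first weeks and 0.5 U/kg in the last, and were taken 2 weeks after the last dose. For the organoids, GFP+ FBs taken on day 14 after PBS (normal FBs) or after 2 U/kg bleomycin (fibrogenic FBs) were mixed in matrigel with tomato+ type 2 alveolar epithelial cells (AEC2s). The AEC2s came from SpcCreER donors, whose Cre is driven by the surfactant protein C gene and was induced with tamoxifen in both organoid groups. The labels give a mixture of 10 AEC2s to each FB, cultured for 2 weeks. The cell numbers in the methods of the study instead have more FBs than AEC2s, and the counts here do not settle which holds. The sort was for cells with GFP, so lung FBs that do not use Pdgfra would be under-represented in these libraries. Other cell types still came through, such as 103 T cells after repetitive PBS and 468 myeloid cells after repetitive bleomycin.

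Xenobiotic metabolism makes foreign and internal lipophilic molecules easier to excrete. Oxidases, reductases and hydrolases first expose or add a reactive group, conjugating enzymes such as glutathione and methyl transferases then cap it, and transporters export the product. The lung meets inhaled compounds directly, and club cells of the airway are its best known site of such enzymes, whereas lipofibroblasts (LipoFBs), the lipid-storing FBs beside AEC2s, are better known for passing lipid to them. Bleomycin is itself inactivated by a hydrolase outside this group of genes.

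The libraries held between 1015 and 10737 barcodes, with median depths of 2478 to 36841 unique molecular identifiers (UMIs) per barcode, and between 0 and 30 barcode sequences were shared by any 2 libraries. Levels are UMIs summed over the barcodes of a cell group, per 1000000 UMIs of that group (CPM). Brackets give 95% intervals, which take in counting error and nothing else. The spread between mice is unknown, since every condition is a single library. Differences between conditions could therefore not be tested, and a condition cannot be told apart from its library. Barcodes were put in cell groups by marker genes, none of which is among the 10 enzymes. The names mean cells like these. Alveolar FBs (Tcf21, Npnt, Limch1 and others) numbered 778 and 520 in the single-dose PBS and bleomycin libraries and 4404 and 4096 in the repetitive-dose ones. MatrixFB-like barcodes (Dcn, Col14a1, Pi16) numbered 111, 168, 900 and 2502 in the same order, and MyoFB-like barcodes (Spp1, Cthrc1, Timp1) 1, 71, 3 and 156. T cells, in which the FB enzymes Inmt and Fmo2 are not known to be made, held Inmt at 1721, 296, 1022 and 168 CPM in the order given, and are set beside the FBs as a reading of FB RNA outside FBs. That RNA was in most T cells of the single-dose libraries, with Inmt in 81.8% of 22 after PBS and 88.9% of 18 after bleomycin. In the repetitive-dose libraries it was uneven. After repetitive PBS, T cells held 5.47 Inmt UMIs on average, but 41.7% of them held any, and after repetitive bleomycin the mean was 0.841 and the share 24.6%. RNA from lysed cells and barcodes that mix an FB with a T cell were not told apart.

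The level of each enzyme differed between cell groups, and not every gene was highest in FBs. Over 47 groups of at least 30 barcodes, alveolar FBs held the highest level of Inmt, Fmo2, Ces1d and Selenbp1. Epithelial cells came near for Ces1d, at 642 CPM [577 to 712] beside 720.0 CPM in alveolar FBs after repetitive PBS. After repetitive bleomycin the epithelial cells held Selenbp1 at 221 CPM [177 to 273], beside 178 CPM in alveolar FBs. Fmo1 was highest in endothelial cells, at 589 CPM [554 to 625] after repetitive PBS, 313 CPM [254 to 381] after single PBS and 301 CPM [252 to 357] after repetitive bleomycin. The last 2 of these intervals overlap, and the alveolar FBs of the same libraries were at 85.9, 44.5 and 52.8 CPM. Those endothelial barcodes came through a GFP sort and held Pdgfra at 308, 345 and 86.7 CPM, against 652, 563 and 459 CPM in the alveolar FBs. FB RNA in those droplets was not told apart from Pdgfra made by the cells. Cyp1b1 was highest in mesothelial-like cells, at 342 CPM [286 to 406] after repetitive PBS and 218 CPM [187 to 251] after repetitive bleomycin. Cbr2 was highest in epithelial cells, at 1743 CPM after repetitive PBS and 634 CPM after repetitive bleomycin, and Aox3 was also highest there, at 379 and 143 CPM. For Cbr2 the name FB enzyme therefore goes against the data. The few club cells, 3, 3 and 5 barcodes in single-dose PBS, repetitive-dose PBS and repetitive-dose bleomycin, held Cbr2 at 9361, 5234 and 4089.5 CPM, and Por at 302, 319 and 420.4 CPM. They also held Selenbp1 at 1136, 638 and 1038 CPM, above the alveolar FBs of those libraries at 877, 516 and 178 CPM. Ephx1 was highest in mesothelial-like cells, at 117 and 112 CPM, and Por, among groups of at least 30 barcodes, in neutrophils at 211 CPM [134 to 317] from 23 UMIs, with intervals that overlapped those of the next groups in the order.

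**Figure D1:**
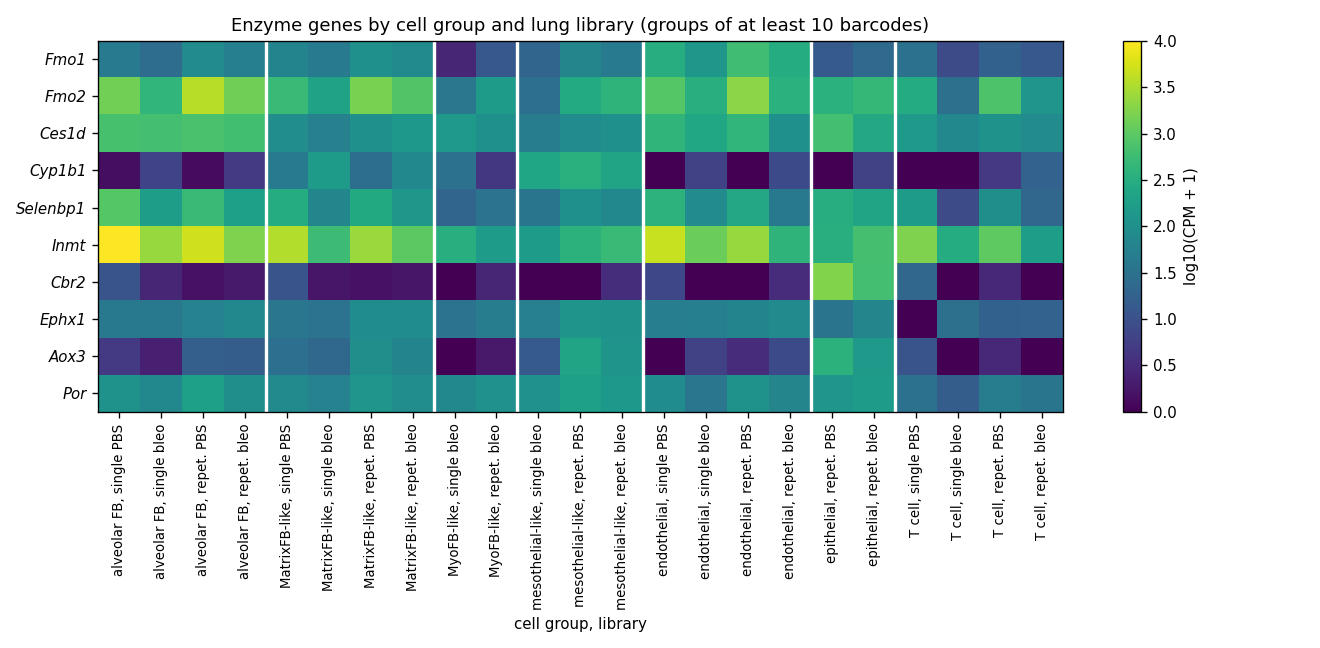
Heat map of log10(CPM + 1) for the 10 enzyme genes (rows) in the cell groups of the 4 lung libraries (columns, groups of at least 10 barcodes, white lines between cell groups). Inmt, Fmo2, Selenbp1 and Ces1d are brightest in alveolar FBs, Fmo1 in endothelial cells, Cyp1b1 in mesothelial-like and MatrixFB-like cells, and Cbr2 and Aox3 in epithelial cells.

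The promoters of 3 genes that were lower together after bleomycin, Inmt, Fmo2 and Selenbp1, and of Cyp1b1, which was higher, are shown first so that they can be read against the levels. RefSeq windows on GRCm38.p6, from 250 bases before to 50 bases after a start site, were at hand for 8 of the 10 genes. They are written 5′ to 3′ on the strand of the gene, from chr6:55174941-55175240 (minus strand, Inmt), chr1:162898709-162899008 (minus strand, Fmo2, 1 of 2 windows), chr3:94932833-94933132 (plus strand, Selenbp1) and chr17:79715012-79715311 (minus strand, Cyp1b1). Capitals mark matches on either strand to GCGTG (the core of the element bound by the aryl hydrocarbon receptor), TGACNNNGC (the core of the antioxidant response element), TATAAA (the TATA box), TTGCNNAA (C/EBP-like) and CAGCTG (an E-box).
Inmt: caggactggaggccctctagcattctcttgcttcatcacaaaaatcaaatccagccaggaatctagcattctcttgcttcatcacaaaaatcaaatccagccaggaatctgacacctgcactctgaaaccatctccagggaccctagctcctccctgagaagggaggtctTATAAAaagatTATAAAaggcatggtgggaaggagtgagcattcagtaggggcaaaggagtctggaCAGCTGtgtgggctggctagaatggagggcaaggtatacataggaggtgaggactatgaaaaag
Fmo2: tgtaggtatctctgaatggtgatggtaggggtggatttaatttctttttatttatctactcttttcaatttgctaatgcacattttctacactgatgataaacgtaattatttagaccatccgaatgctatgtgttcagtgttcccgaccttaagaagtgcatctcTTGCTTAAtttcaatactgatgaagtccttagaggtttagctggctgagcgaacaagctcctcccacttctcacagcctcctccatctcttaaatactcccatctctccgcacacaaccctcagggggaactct
Selenbp1: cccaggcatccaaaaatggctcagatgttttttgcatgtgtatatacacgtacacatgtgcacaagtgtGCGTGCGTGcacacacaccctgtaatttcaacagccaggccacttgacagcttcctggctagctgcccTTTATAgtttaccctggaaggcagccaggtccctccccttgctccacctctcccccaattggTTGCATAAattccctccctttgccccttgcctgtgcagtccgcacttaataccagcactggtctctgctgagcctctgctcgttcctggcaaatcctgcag
Cyp1b1: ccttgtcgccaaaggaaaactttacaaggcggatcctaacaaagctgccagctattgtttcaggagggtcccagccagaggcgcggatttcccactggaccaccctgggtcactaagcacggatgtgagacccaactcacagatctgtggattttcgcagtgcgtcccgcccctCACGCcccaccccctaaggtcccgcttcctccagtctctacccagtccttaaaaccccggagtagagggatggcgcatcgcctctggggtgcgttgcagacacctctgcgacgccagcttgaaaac
The aryl hydrocarbon receptor core was found 1 time in the Cyp1b1 window, 76 bases before the start site, and 2 times in the Selenbp1 window, where the matches overlap by 1 base. It was absent from these letters of Inmt and Fmo2, and was found in 32.4% of all 32851 RefSeq windows. The Aox3 window held it 1 time. The window of Por, which was lower in alveolar FBs after bleomycin in both experiments, held it 3 times. TATAAA was found in the windows of Inmt, Selenbp1 and Ephx1 (13.6% of all windows), CAGCTG in Inmt and Ephx1 (16.3%) and TTGCNNAA in Selenbp1 and both Fmo2 windows (10.8%). TGACNNNGC, found in 12.4% of all windows, was in none of the 8 genes' windows. A match is a description of the letters, with no measurement of binding here.

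Inmt, Fmo2 and Selenbp1 were lower in alveolar FBs after bleomycin in both experiments, 2.74-fold to 4.98-fold. Inmt (chr6:55170626-55175043, minus strand, GRCm38), the enzyme that N-methylates tryptamine and related amines, was at 10109 CPM after single PBS and 2403 CPM after single bleomycin. After repetitive dosing it was at 5104 CPM in PBS and 1725 CPM in bleomycin. Both bleomycin levels are below both PBS levels. The log2 ratios of bleomycin over PBS were −2.07 [−2.10 to −2.05] and −1.56 [−1.58 to −1.55]. Inmt was also lower in the T cells after bleomycin, 5.82-fold and 6.08-fold, in the same direction as in the FBs. With the T-cell level of each library subtracted, the alveolar log2 ratios were −1.99 and −1.39.

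Fmo2 (chr1:162874317-162898726, minus strand), the flavin-containing monooxygenase best known from lung, oxidises nitrogen and sulphur atoms in drugs and pesticides. Its level in alveolar FBs was 1426 CPM after single PBS and 439 CPM after single bleomycin, and 3708 and 1353 CPM in the repetitive-dose libraries. The bleomycin level was the lower one in each experiment, although the repetitive-dose bleomycin library lay close to the single-dose PBS library. The log2 ratios were −1.70 [−1.76 to −1.64] and −1.45 [−1.47 to −1.44]. T cells held Fmo2 at 290.1, 28.8, 755 and 122 CPM. Fmo1 (chr1:162829561-162866610, minus strand), the neighbouring member of the same enzyme family, was at 44.5 and 26.2 CPM in the single-dose pair and 85.9 and 52.8 CPM in the repetitive-dose pair. Its log2 ratios were −0.76 [−1.06 to −0.47] and −0.70 [−0.78 to −0.63], smaller in size than those of Fmo2. Subtracting the T-cell level turned the single-dose Fmo1 ratio to 0.39, where the T-cell level rests on 3 UMIs in PBS and 1 UMI in bleomycin, and left the repetitive-dose ratio at −0.76.

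Selenbp1 (chr3:94933056-94944758, plus strand) encodes a selenium-binding protein that oxidises methanethiol. It was at 877 CPM after single PBS and 176 CPM after single bleomycin, and at 516 and 178 CPM in the repetitive-dose pair. The 2 bleomycin levels were within a few CPM of each other and far below both PBS levels. The log2 ratio was −2.32 [−2.41 to −2.22] after the single dose and −1.54 [−1.58 to −1.50] after repetitive doses. Its near-identical copy Selenbp2 held 0.107 to 1.34 CPM in the same cells. How many reads matched both copies was not measured. Ces1d (chr8:93166068-93197838, minus strand), a carboxylesterase that hydrolyses ester drugs and triglyceride, differed little over all alveolar FBs. It was at 688 and 633 CPM in the single-dose pair and 720.0 and 618 CPM in the repetitive-dose pair. Its log2 ratios, −0.12 [−0.18 to −0.05] and −0.22 [−0.25 to −0.20], are the only ones among Inmt, Fmo2, Selenbp1 and Ces1d that stayed within 1.5-fold. The related Ces1 gene Ces1g was at 0.902 to 4.30 CPM in these cells.

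Of the 10 enzymes, 1, Cyp1b1, was at least 1.5-fold higher in alveolar FBs after bleomycin in both experiments. Over all genes this held for 7.92% of 7827, so the count is near that share. The single-dose ratio rests on under 100 UMIs. Cyp1b1 (chr17:79701537-79715061, minus strand) is a cytochrome P450 that oxidises polycyclic hydrocarbons, oestrogens and retinoids, and is a known target of the aryl hydrocarbon receptor. In alveolar FBs it was at 0.384 CPM after single PBS (2 UMIs in 778 barcodes) and 5.46 CPM after single bleomycin (35 UMIs). In the repetitive-dose pair it was at 0.328 CPM (16 UMIs) and 3.87 CPM (145 UMIs). Both bleomycin levels are above both PBS levels, and all are low. The log2 ratios were 3.83 [1.87 to 6.93] and 3.56 [2.81 to 4.41]. T cells held 0, 0, 2 and 6 UMIs of Cyp1b1 in the 4 libraries. In repetitive-dose bleomycin the T-cell level of 17.4 CPM [6.38 to 37.8] was above the alveolar FB level, from 6 UMIs in 3 of 69 barcodes, and in single-dose bleomycin the T-cell interval reached 26.6 CPM. The alveolar levels were thus not above those of T-cell barcodes at this depth.

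Por (chr5:135670033-135735326, plus strand), the reductase that passes electrons to all microsomal P450s, was lower after bleomycin in both experiments. It was at 115 and 73.3 CPM in the single-dose pair and at 184 and 96.0 CPM in the repetitive-dose pair. The log2 ratios were −0.66 [−0.83 to −0.48] and −0.94 [−0.99 to −0.88]. In the annotation Por overlaps a lincRNA and a pseudogene on the other strand. On the same strand, Ces1d overlaps Gm45909 and Ephx1 overlaps the pseudogene Gm36961. Whether these overlaps changed the counts was not measured. Ephx1 (chr1:180976210-181020904, minus strand), the microsomal epoxide hydrolase, did not share this pattern. It was at 40.1 and 39.9 CPM in the single-dose pair, a log2 ratio of −0.01 [−0.27 to 0.27], and at 58.1 and 73.7 CPM in the repetitive-dose pair, a log2 ratio of 0.34 [0.27 to 0.42]. Subtracting the T-cell level moved the single-dose ratio to −1.85, where the T-cell level rests on 0 UMIs in PBS and 4 UMIs in bleomycin.

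Aox3 and Cbr2 were scarce in alveolar FBs. Aox3 (chr1:58113130-58200698, plus strand), an aldehyde oxidase that also oxidises nitrogen heterocycles, was at 3.84 CPM (20 UMIs) and 1.25 CPM (8 UMIs) in the single-dose pair, a log2 ratio of −1.62 [−3.01 to −0.37]. In the repetitive-dose pair it was at 15.2 and 14.4 CPM, a log2 ratio of −0.07 [−0.24 to 0.09]. The related Aox1 was at 28.8, 15.9, 67.6 and 41.9 CPM in these cells in library order. Cbr2 (chr11:120729489-120732114, minus strand), the carbonyl reductase known from club cells, was at 9.78 CPM (51 UMIs) and 1.72 CPM (11 UMIs) in the single-dose pair, a log2 ratio of −2.51 [−3.60 to −1.55]. The club cell secretory gene Scgb1a1 moved with it in those FBs, at 701 and 18.9 CPM, and in the T cells, at 620.3 and 0 CPM. Its part in the Cbr2 ratio was not tested. In the repetitive-dose pair, where Scgb1a1 was at 19.0 and 37.4 CPM, Cbr2 was at 0.594 and 0.962 CPM, a log2 ratio of 0.69 [−0.05 to 1.45]. Over whole libraries Cbr2 was at 172 and 8.34 CPM in the single-dose pair, and 1055 of the 1237 UMIs behind the PBS value came from 3 club barcodes.

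Counted over the group, 7 of the 10 enzymes were at least 1.5-fold lower in alveolar FBs after the single dose and 1 was higher. Among 8259 genes with at least 100 UMIs, 9.34% were lower and 15.1% were higher. The enzymes were chosen with earlier results of these data known, so a count above such a share is a description and no test. Only 7 enzymes had those 100 UMIs, of which 5 were lower and 0 higher, and Aox3, Cbr2 and Cyp1b1 were not among them. After repetitive doses 5 enzymes were lower and 2 higher, among 12905 genes of which 7.67% were lower and 15.6% higher. Of the 9 enzymes with 100 UMIs 5 were lower and 1, Cyp1b1, was higher, the other being the scarce Cbr2. Cyp1b1 reached 100 UMIs only through the bleomycin library, with 145 UMIs there and 16 in PBS. The median log2 ratio of the 10 was −1.19 and −0.46, beside 0.06 and 0.10 over all genes tested. The medians of the 10 take in enzymes with under 100 UMIs, and those over all genes do not. Among the enzymes with 100 UMIs, the middle log2 ratio was that of Fmo1 in both experiments, given above. The 5 genes lower in both experiments were Fmo1, Fmo2, Selenbp1, Inmt and Por, and 4.01% of 7827 genes were lower in both, against 7.92% higher in both. Over all gated FBs, the single-dose count was again 7 lower and 1 higher (9.82% and 16.3% of 9342 genes), and the repetitive-dose count 5 lower and 2 higher (8.10% and 17.2% of 13776 genes). With 100 UMIs required of the enzymes too, these counts were 5 lower and 1 higher of 8, and 5 lower and 1 higher of 9. After the single dose the higher one, Cyp1b1, reached 100 UMIs only through bleomycin, with 321 UMIs against 46 in all PBS FBs. The medians there were −0.88 and −0.55, again over all 10 enzymes. All FBs include the MatrixFB-like and MyoFB-like barcodes, whose shares differed between libraries.

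**Figure D2:**
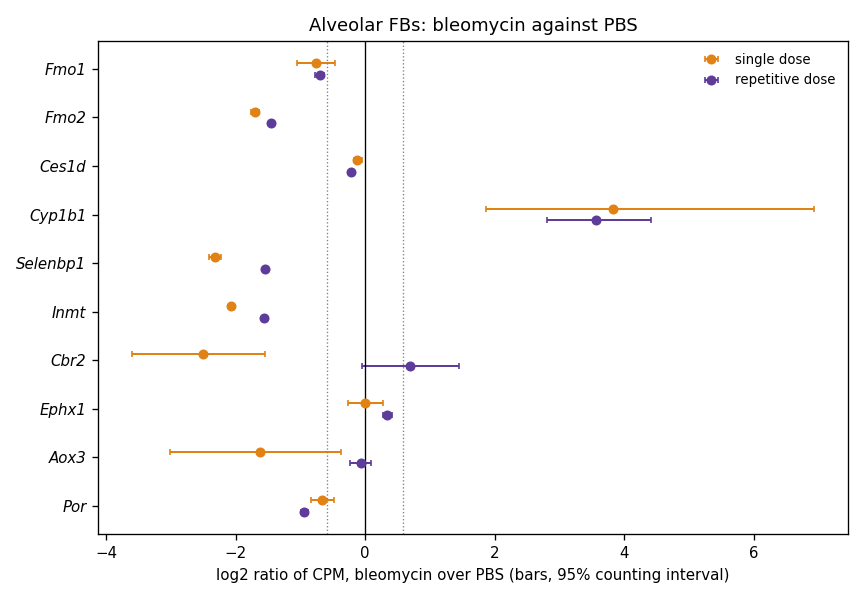
Log2 ratio of CPM, bleomycin over PBS, for the 10 enzyme genes in alveolar FBs (orange, single dose; purple, repetitive dose; bars, 95% counting interval; dotted lines, 1.5-fold). Inmt, Fmo2, Selenbp1, Por and Fmo1 lie left of 0 in both experiments, Cyp1b1 lies right of it at 3.83 and 3.56, and Ces1d and Ephx1 lie between the dotted lines.

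The shares of barcodes with a UMI gave a like picture once each barcode was thinned to 2000 UMIs. Inmt was found in all 738 alveolar barcodes after single PBS (lower limit 99.5%) and in 77.1% [73.2 to 80.7] of 511 after single bleomycin. In the repetitive-dose pair it was found in 99.6% of 4356 and 84.1% [82.8 to 85.4] of 3009 barcodes. Without thinning the 4 shares were 100%, 96.9%, 99.8% and 90.9%, at median depths of 6821, 12100.5, 10591 and 6709.5 UMIs. Selenbp1 was found in 74.0% and 26.4% of thinned alveolar barcodes in the single-dose pair and in 60.9% and 27.6% in the repetitive-dose pair. Fmo2 was found in 90.5% and 54.0%, and in 99.1% and 83.3%. For Ces1d the shares were closer to each other, 60.0% and 55.6%, and 66.7% and 54.8%. Thinned T cells held Inmt in 93.3% of 15, 47.1% of 17, 28.9% of 90 and 16.7% of 60 barcodes, and Selenbp1 in 13.3%, 0%, 8.89% and 5%, at median depths of 5058, 4408, 4028 and 4459 UMIs before thinning. The alveolar share was above the T-cell share for both genes in every library. The 0 of 17 T cells with Selenbp1 allows a share of up to 19.5%. Thinning left out 40, 9, 48 and 1087 alveolar barcodes and 7, 1, 13 and 9 T cells as too shallow.

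**Figure D3:**
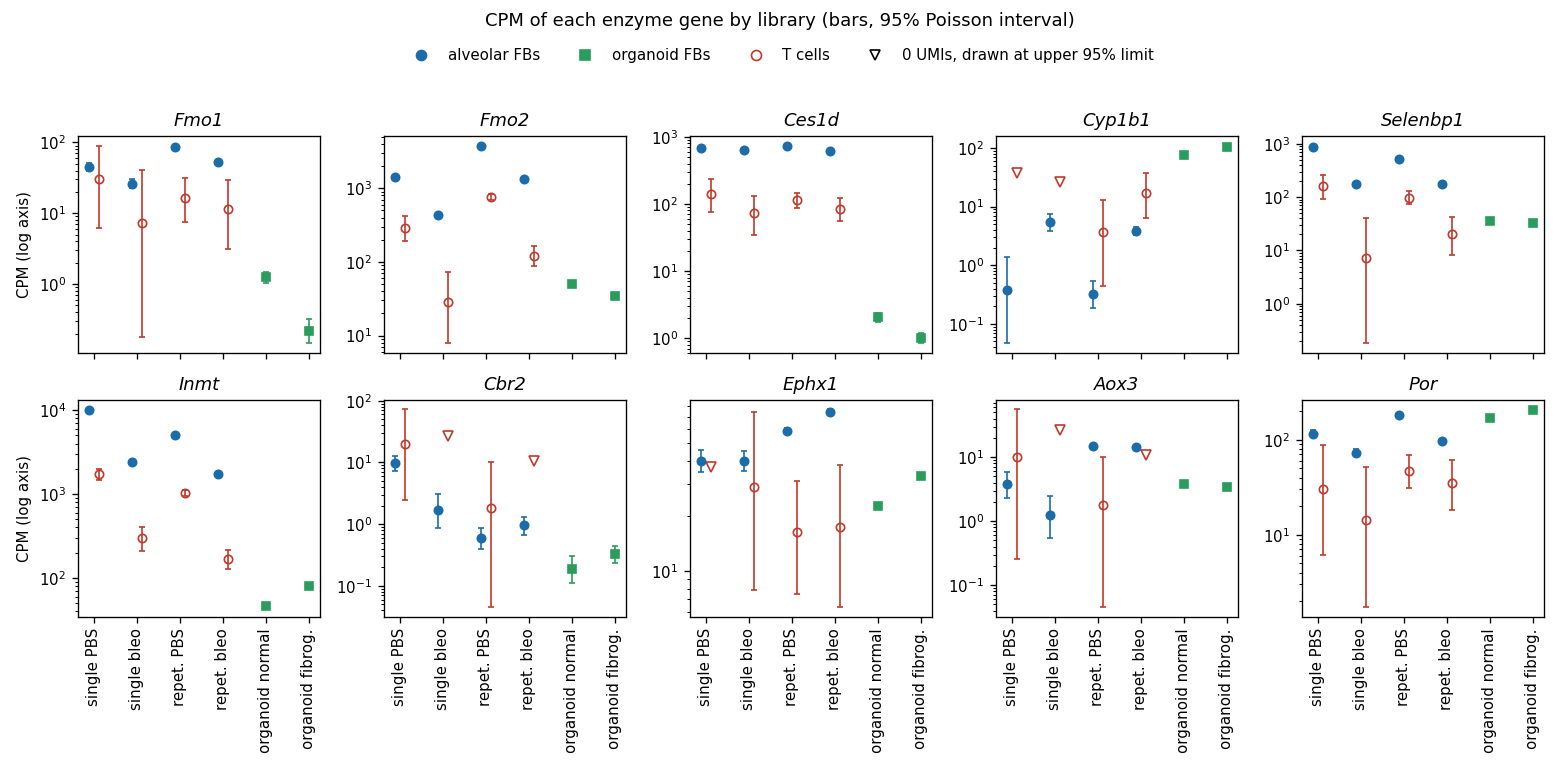
CPM on a log axis for each enzyme gene by library (blue, alveolar FBs; green, organoid FBs; open red, T cells; bars, 95% Poisson interval; triangles, 0 UMIs drawn at the upper limit). Inmt, Fmo2 and Selenbp1 are lower after bleomycin in alveolar FBs and in T cells. Inmt is higher in fibrogenic than in normal organoid FBs, which leave out cycling ones. Ces1d stays between 618 and 720.0 CPM in alveolar FBs, and of the groups drawn Cyp1b1 is highest in organoid FBs.

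Alveolar FBs were next divided by their level of 7 LipoFB markers (Col13a1, Mettl7a1, Igfbp3, Cdo1, Hsd11b1, Tcf21 and Plin2), none of them among the 10 enzymes. Bins of low, middle and high level were cut at 27.1 and 63.5 marker UMIs per 10000 for the single-dose pair and at 22.2 and 48.5 for the repetitive-dose pair. The bins are ranges of a score and not cell types. Fewer barcodes were in the high bin after bleomycin, 36 against 397 in PBS for the single dose and 356 against 2478 for repetitive doses. Ces1d, Inmt, Fmo2 and Selenbp1 were higher in the middle than in the low bin and highest in the high bin in each of the 4 libraries, while Aox3 went the other way or was at 0.

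Within bins, Ces1d parted from the other 3. After single PBS, Ces1d was at 140.1, 436 and 1108 CPM in the low, middle and high bins, and after single bleomycin at 303, 1154 and 2280.2 CPM. The low-bin PBS level was that of the T cells of the library, 140.1 CPM [76.6 to 235]. The bleomycin FBs were higher in every bin, with log2 ratios of 1.11 [0.84 to 1.39], 1.40 [1.29 to 1.52] and 1.04 [0.91 to 1.17]. In the repetitive-dose libraries it was at 236, 496 and 998 CPM after PBS and at 302, 859.6 and 2021 CPM after bleomycin. Those log2 ratios were 0.35 [0.27 to 0.43], 0.79 [0.75 to 0.83] and 1.02 [0.98 to 1.06]. The markers that set the bins were themselves lower after bleomycin (5 of 7 and 6 of 7 at least 1.5-fold), so a bin does not hold cells of equal identity in both libraries. The part of this marker difference in the Ces1d ratios by bin was not tested.

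Inmt was lower after bleomycin in every bin. It was at 6403, 9094 and 12367 CPM after single PBS and 1157, 4374 and 8585 CPM after single bleomycin, log2 ratios of −2.47, −1.06 and −0.53. The difference was thus smaller at higher marker levels. In the repetitive-dose pair the log2 ratios were −1.71, −1.04 and −0.89, in the same order. Fmo2 had log2 ratios of −1.49, −1.24 and −0.69 after the single dose and −1.10, −0.87 and −0.91 after repetitive doses. For Selenbp1 they were −1.73, −1.32 and −1.09, and −1.10, −0.85 and −1.06. Por was lower in the low bins (−0.66 [−1.02 to −0.29] and −1.17 [−1.27 to −1.07]) and, after the single dose, had intervals that held 0 in the middle and high bins. After repetitive doses Por was also lower in the middle bin, at 93.7 against 187 CPM [log2 interval −1.10 to −0.90], and the high bin, −0.33 [−0.48 to −0.18].

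**Figure D4:**
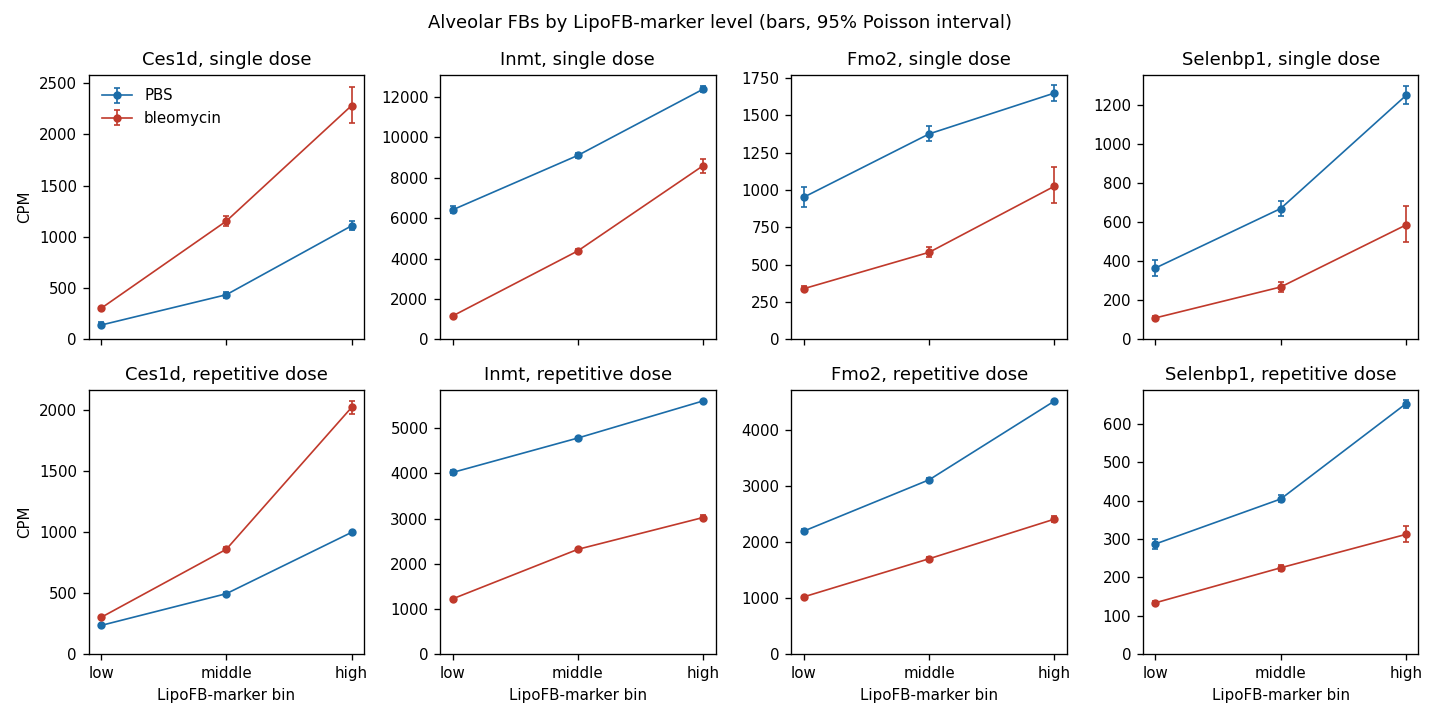
CPM of Ces1d, Inmt, Fmo2 and Selenbp1 in alveolar FBs by bin of LipoFB-marker level (x axis), for the single dose (top) and repetitive doses (bottom), PBS in blue and bleomycin in red, bars being 95% Poisson intervals. The red line is above the blue line for Ces1d in all 6 bins and below it for the other 3 genes.

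MatrixFB-like FBs, the adventitial FBs that make Dcn and Col14a1, held the enzymes at other levels than alveolar FBs of the same library. Cyp1b1 was higher in them in all 4 libraries, at 45.6, 162, 27.3 and 73.2 CPM against 0.384, 5.46, 0.328 and 3.87 CPM. The log2 ratios of MatrixFB-like over alveolar FBs were 6.89 [4.92 to 10.00], 4.89 [4.37 to 5.45], 6.38 [5.65 to 7.21] and 4.24 [3.99 to 4.50]. Aox3 was also higher in each library, 7.43-fold, 17.2-fold, 6.17-fold and 4.40-fold. Ces1d was lower in each, at 91.2, 54.1, 99.7 and 134 CPM, which was 7.54-fold, 11.7-fold, 7.22-fold and 4.60-fold below the alveolar FBs. The T cells of those libraries held Ces1d at 140.1, 72.1, 114 and 84.0 CPM, and the intervals of T cells and MatrixFB-like FBs overlapped in the first 3 libraries. In the last, the MatrixFB-like interval [128 to 140.3] lay above that of the T cells [56.3 to 121]. Inmt was 1.76-fold to 4.39-fold lower in MatrixFB-like than in alveolar FBs. In the PBS libraries, 4 enzymes were at least 1.5-fold lower and 2 higher after the single dose (18.2% and 11.1% of 5870 genes), and 4 were lower and 3 higher after repetitive doses (15.9% and 11.8% of 12031 genes). The 2 higher after the single dose, Cyp1b1 and Aox3, had under 100 UMIs.

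Within MatrixFB-like FBs, Inmt, Fmo2, Selenbp1 and Cyp1b1 differed between bleomycin and PBS in the same direction as in alveolar FBs. Each differed at least 1.5-fold in both experiments. Among genes with at least 100 UMIs, 278 of 2728 were that much lower and 254 higher after the single dose. After repetitive doses 493 of 10702 were lower and 910 higher. In the single-dose pair T cells held Inmt at 1721 and 296, Fmo2 at 290.1 and 28.8, and Selenbp1 at 160.1 and 7.21 CPM. The part of FB RNA from other cells in these ratios was not tested. MatrixFB-like FBs held Fmo2 at 499 and 199 and Selenbp1 at 298 and 68.2 CPM. Inmt was at 3435 and 547 CPM in the single-dose pair and 2512 and 981 CPM in the repetitive-dose pair, log2 ratios of −2.65 [−2.77 to −2.53] and −1.36 [−1.39 to −1.33]. Cyp1b1 had log2 ratios of 1.83 [1.29 to 2.41] and 1.42 [1.22 to 1.63], from 32, 218, 240 and 1042 UMIs. Since MatrixFB-like FBs held far more Cyp1b1, most of the Cyp1b1 of all FBs came from them, 218 of 321 UMIs after single bleomycin and 1042 of 1258 after repetitive bleomycin. Ces1d went in opposite directions in the 2 experiments, with log2 ratios of −0.75 [−1.26 to −0.25] and 0.43 [0.31 to 0.55]. In T cells the single-dose Ces1d ratio was −0.96 [−2.29 to 0.32], with intervals that overlapped those of the MatrixFB-like FBs in both libraries. Aox3 was lower after repetitive bleomycin, 93.9 against 63.5 CPM, a log2 ratio of −0.56 [−0.70 to −0.42].

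MyoFB-like FBs, the contractile, matrix-depositing FBs marked by Spp1 and Cthrc1, held little of the alveolar set. The PBS libraries had only 1 and 3 such barcodes, so MyoFB-like FBs were set against the alveolar FBs of the same bleomycin library. Fmo2 was at 38.7 against 439 CPM after the single dose and 164 against 1353 CPM after repetitive doses. Ces1d was at 145 against 633 CPM and 99.8 against 618 CPM. The log2 ratios of MyoFB-like over alveolar FBs were −3.50 [−3.96 to −3.08] and −3.04 [−3.19 to −2.90] for Fmo2 and −2.12 [−2.35 to −1.90] and −2.63 [−2.82 to −2.44] for Ces1d. Inmt was at 339 and 159 CPM in MyoFB-like FBs and at 296 [212 to 401] and 168 [128 to 217] CPM in the T cells of those libraries, so its level in MyoFB-like FBs was within the T-cell interval. Fmo2 after the single dose (T cells 28.8 [7.86 to 73.8] CPM) and Ces1d after repetitive doses (84.0 [56.3 to 121] CPM) were within it as well. Selenbp1 was at 18.9 and 32.8 CPM, within the T-cell intervals of 7.21 [0.182 to 40.2] and 20.3 [8.15 to 41.8] CPM. Fmo1 had 2 and 27 UMIs, log2 ratios of −3.93 [−6.99 to −2.05] and −2.20 [−2.80 to −1.65], at levels of 1.72 and 11.5 CPM that also lay within the T-cell intervals.

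Por did not share the low MyoFB-like level. It was at 74.0 against 73.3 CPM and 104 against 96.0 CPM, log2 ratios of 0.01 [−0.34 to 0.35] and 0.12 [−0.07 to 0.31]. Ephx1 differed by less than Fmo2 or Inmt, with log2 ratios of −0.29 [−0.82 to 0.21] and −0.65 [−0.94 to −0.38]. Cyp1b1 differed between the 2 bleomycin libraries, at 31.8 CPM (37 UMIs) in the single-dose MyoFB-like FBs, a log2 ratio of 2.54 [1.84 to 3.25], and at 3.41 CPM (8 UMIs) in the repetitive-dose ones, −0.18 [−1.42 to 0.83]. Few barcodes carried these UMIs, 8 of 71 after the single dose and 4 of 156 after repetitive doses. In all, 5 enzymes were at least 1.5-fold lower and 1, Cyp1b1 with under 100 UMIs, higher after the single dose, among 6982 genes of which 18.0% were lower and 7.33% higher. After repetitive doses 7 were lower and 1, Cbr2 with 4 UMIs, higher, among 11712 genes of which 24.0% were lower and 9.78% higher. Aox3 and Cbr2 had 0 UMIs in the single-dose MyoFB-like FBs, against 8 and 11 UMIs in alveolar FBs, and no fold is given.

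In organoids, FBs held a different balance of the same enzymes after 2 weeks of culture. Levels in organoid and lung libraries are set side by side without a test, since tissue source, culture and library all differ. Inmt was at 46.9 CPM in 1769 normal and 80.1 CPM in 2552 fibrogenic organoid FBs, where the lung alveolar FBs were at 1725 to 10109 CPM. Ces1d was at 2.04 and 1.00 CPM, and Fmo1 at 1.24 and 0.220 CPM. Cyp1b1 was at 77.6 and 106 CPM, above its level in the alveolar FBs of all 4 lung libraries. The lung MatrixFB-like FBs, at 45.6, 162, 27.3 and 73.2 CPM in library order, lay on both sides of these levels. The organoid FBs were not divided into alveolar and MatrixFB-like ones. Por was at 169.6 and 205 CPM, where the lung alveolar FBs were at 73.3 to 184 CPM.

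The 2 organoid groups differed furthest in Fmo1 and Ces1d. The log2 ratio of fibrogenic over normal FBs was −2.50 [−3.15 to −1.89] for Fmo1 (28 against 117 UMIs) and −1.02 [−1.35 to −0.69] for Ces1d. It was 0.77 [0.72 to 0.82] for Inmt, opposite in sign to the lung, and 0.45 [0.41 to 0.49] for Cyp1b1. These FBs leave out cycling organoid FBs, in which Inmt went the other way. It was at 67.4 CPM [62.9 to 72.1] in 182 normal and 48.5 CPM [45.2 to 51.9] in 246 fibrogenic cycling barcodes. Fmo2 was at 49.4 and 34.1 CPM, −0.54 [−0.60 to −0.48], Ephx1 at 22.6 and 33.0 CPM, 0.55 [0.47 to 0.62], and Por 0.27 [0.25 to 0.30]. The ratio of Selenbp1 was −0.13 [−0.20 to −0.06], and the intervals of Aox3 (−0.39 to 0.02) and Cbr2 (−0.04 to 1.67) held 0. Thus 2 enzymes were at least 1.5-fold lower and 2 higher, of which Cbr2 had under 100 UMIs, among 14196 genes of which 6.02% were lower and 3.47% higher.

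In the organoids, Selenbp1, Ces1d, Aox3 and Cbr2 were higher in AEC2-like cells than in the FBs. Lung epithelial cells also held Cbr2 and Aox3 above the alveolar FBs, at 1743 against 0.594 and 379 against 15.2 CPM after repetitive PBS. In AEC2-like cells of the normal and fibrogenic organoids, Selenbp1 was at 818 and 477 CPM, Ces1d at 93.1 and 142 CPM, Aox3 at 75.9 and 76.5 CPM and Cbr2 at 32.8 and 56.9 CPM. These were 22.7-fold and 14.5-fold (Selenbp1), 45.7-fold and 141-fold (Ces1d), 19.8-fold and 22.7-fold (Aox3) and 172-fold and 173-fold (Cbr2) above the FBs of the same organoids. The surfactant gene Sftpc was at 84156 and 86157 CPM in AEC2-like cells and at 299 and 260.4 CPM in organoid FBs, so AEC2 RNA was counted in FB barcodes too. PATS-like cells, the transitional state between AEC2s and type 1 cells (AEC1s), held less of these 4 enzymes, with Selenbp1 at 42.0 and 39.9 CPM, Ces1d at 1.89 and 4.64 CPM, Aox3 at 1.89 and 1.26 CPM and Cbr2 at 4.02 and 3.00 CPM. Ephx1 had the reverse order, at 46.7 and 69.6 CPM in PATS-like cells and 17 and 27.2 CPM in AEC2-like cells. AEC1-like cells held Ces1d at 95.4 and 89.5 CPM and Selenbp1 at 475 and 324 CPM, closer to AEC2-like cells, and Aox3 at 7.67 and 5.25 CPM, closer to PATS-like cells.

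Over the gated epithelium, Selenbp1 was lower with fibrogenic FBs, at 388 against 686 CPM, a log2 ratio of −0.82 [−0.84 to −0.80], and it was lower in AEC2-like cells alone, −0.78 [−0.80 to −0.75]. Ephx1, Cbr2 and Ces1d were higher with fibrogenic FBs, by log2 ratios of 0.74 [0.65 to 0.83], 0.60 [0.51 to 0.68] and 0.41 [0.36 to 0.46]. Por (0.21 [0.15 to 0.26]) and Aox3 (−0.14 [−0.20 to −0.07]) differed less. Fmo2, Cyp1b1 and Inmt were also higher, with log2 ratios of 1.18, 1.14 and 1.30, at levels of 0.455 to 2.88 CPM. The FB gene Col1a1 was at 16.9 CPM in AEC2-like cells of normal and 37.8 CPM in those of fibrogenic organoids, and the part of such FB RNA in the 3 ratios was not tested. In all, 1 enzyme was at least 1.5-fold lower and 5 were higher, among 13506 genes of which 1.5% were lower and 4.29% higher. Of the 5, 3 are those low-level FB enzymes.

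**Figure D5:**
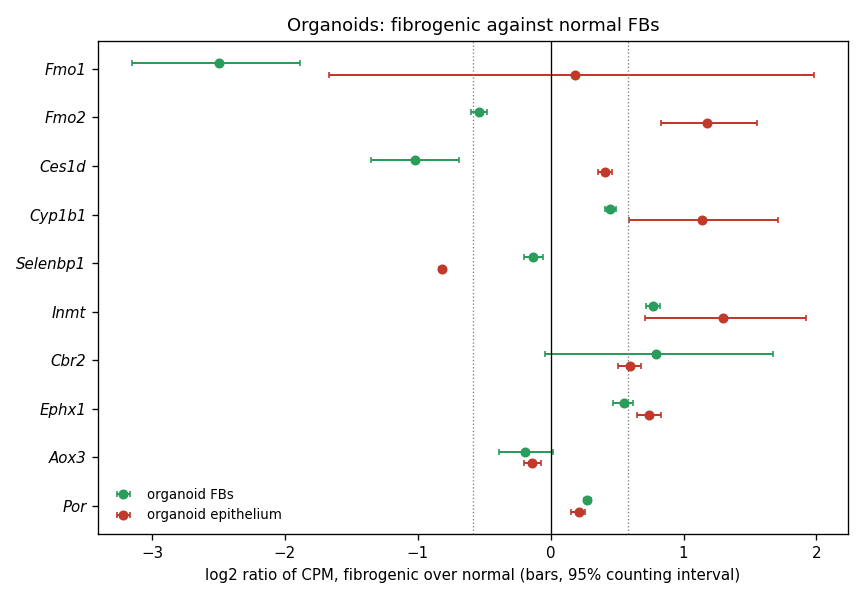
Log2 ratio of CPM, fibrogenic over normal FB organoids, for the 10 enzyme genes in organoid FBs (green) and organoid epithelium (red), bars being 95% counting intervals and dotted lines 1.5-fold. Selenbp1 lies at −0.82 in the epithelium and −0.13 in the FBs, while Fmo1 and Ces1d lie left of 0 in the FBs at −2.50 and −1.02.

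The other genes of the pathway were read in alveolar FBs from fixed lists. Of 42 further oxidation and reduction enzymes, 32 had at least 100 UMIs in the single-dose pair, of which 15 were at least 1.5-fold lower and 4 higher, with a median log2 ratio of −0.54. Over all genes tested in alveolar FBs, 9.34% were lower and 15.1% higher after the single dose, and 7.67% and 15.6% after repetitive doses. In the repetitive-dose pair 9 of 35 were lower and 6 higher, with a median of −0.14. The P450 Cyp7b1, which hydroxylates oxysterols, had the highest ratios, 67.7 against 9.59 CPM (2.82 [2.40 to 3.27]) and 402 against 46.6 CPM (3.11 [3.04 to 3.17]). Among the lowest were the monooxygenase Fmo5 (−2.11 [−2.58 to −1.67]) and the sterol hydroxylase Cyp27a1 (−1.63 [−1.92 to −1.34]) after the single dose. After repetitive doses they were Fmo4 (−1.54, at 2.72 CPM in PBS) and the retinaldehyde dehydrogenase Aldh1a1 (−1.28 [−1.30 to −1.26]), which was at 1642 CPM in PBS and 674 CPM in bleomycin.

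Of the conjugation genes, 9 of 21 with enough UMIs were lower and 2 higher after the single dose, and 6 of 23 were lower and 1 higher after repetitive doses. The medians were −0.56 and −0.23. Beside the shares over all genes given above (9.34% and 7.67% lower, 15.1% and 15.6% higher), a larger part of this list was lower. That difference was not tested, and the higher genes are too few to set apart from those shares. The glutathione transferase Gstm1 was at 1744 CPM in PBS and 275 CPM in bleomycin after the single dose and at 772 and 204 CPM after repetitive doses. These are log2 ratios of −2.66 [−2.74 to −2.59] and −1.92 [−1.95 to −1.88]. Gsta3, another glutathione transferase, had −2.42 and −2.11. The arsenite methyltransferase As3mt was higher, at 0.87 [0.35 to 1.41] and 0.61 [0.38 to 0.85]. Other hydrolases and efflux transporters held few genes past 1.5-fold, too few to set apart from those shares. Of the hydrolases, 1 of 5 was lower and 0 higher after the single dose and 1 of 8 lower and 3 higher after repetitive doses, with Ces1g at 2.25 [1.77 to 2.77]. Of the transporters, none of 4 was past 1.5-fold after the single dose and 2 of 7 were higher after repetitive doses, with Abcc9 at 0.91 [0.82 to 1.00].

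Among the regulators, the aryl hydrocarbon receptor gene Ahr had the highest ratio in both experiments. It was at 2.30 and 25.1 CPM in the single-dose pair and 4.38 and 31.6 CPM in the repetitive-dose pair, log2 ratios of 3.45 [2.60 to 4.43] and 2.85 [2.64 to 3.07]. Tiparp, a target and repressor of this receptor, was not higher, at 0.09 [−0.33 to 0.51] and −0.76. Nfe2l2, which drives antioxidant enzymes, had −0.12 and −0.37, and its inhibitor Keap1 0.11 and 0.26. Of the 11 and 13 regulators with enough UMIs, 1 and 3 were lower and 2 and 1 were higher, with Maff at −0.69 and −1.76. Over all genes 9.34% and 7.67% were lower and 15.1% and 15.6% higher. In organoid FBs Ahr was lower with fibrogenic FBs, 21.5 against 30.1 CPM, −0.48 [−0.56 to −0.41]. There Cyp7b1 was also lower, at 75.4 against 154 CPM, −1.03 [−1.07 to −0.99].

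Across the 47 cell groups, levels of Inmt and Fmo2 followed each other most closely among the 10 enzymes, with a Pearson r of 0.96 on log2(CPM + 1), followed by Fmo1 and Fmo2 at 0.91. Cyp1b1 and Selenbp1 had the lowest value, −0.48. The groups of a library share its depth and RNA from lysed cells, so the coefficients are descriptions. Among 12598 genes, those most like Fmo2 were Angpt1 and Ogn (0.97 each). Inmt followed Tcf21 closely (0.97), and Fmo1 followed Pcolce2 (0.92). Tcf21 is one of the genes that set the FB groups. Ces1d was most like Mettl7a1 (0.90) and Limch1 (0.87), also group markers. For Cyp1b1 they were Thbs2 (0.89) and Rnf165 (0.86), for Selenbp1 Gstk1 (0.84) and Bmp4 (0.82), and for Cbr2 Scgb1c1 (0.82) and Smim6 (0.80). Ephx1 was most like Vwa5a (0.87) and Ctbs (0.86), Aox3 like Tcf7l1 (0.80) and Plxna2 (0.76), and Por like App (0.68) and Srxn1 (0.62).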

How the data were processed

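The authors aligned the reads of 6 droplet libraries with Cell Ranger (version 3.0.1 in the submitters' processing notes) and deposited UMI counts per gene symbol and barcode, without normalization. The methods name GRCm38 (mm10 in the submitters' processing notes) and Gencode M17, without saying for which libraries. The single-dose tables list 30830 and 30828 genes and the others 32285. Counts were read as deposited with Python 3.11.15, numpy 2.4.6, scipy 1.17.1 and pandas 2.3.3. Total depth ran from 7201081 to 238618743 UMIs per library.

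Barcodes with under 1000 UMIs or over 25% mitochondrial UMIs were left out (1.32% to 19.1% per library). Lung barcodes with at least 3 markers of another lineage, summing to at least 20 per 10000 UMIs, were removed from the FBs, as was any organoid barcode with both FB and epithelial markers (6.97% and 22.1%). No doublet caller was run. MyoFB-like FBs needed 100 and MatrixFB-like FBs 50 marker UMIs per 10000, and at most 9.41% of FBs lay within 20% of such a limit. Against the gated groups these are larger parts. In the bleomycin libraries 41 and 121 FBs lay near the MyoFB limit, beside 71 and 156 MyoFB-like barcodes. After repetitive bleomycin 711 lay near the MatrixFB limit, beside 2502 MatrixFB-like barcodes. The markers and lists stem from a written design. The limits were set after the marker distributions were seen, and the enzymes and lists were chosen with earlier results of these data known.

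UMIs of a group were summed and given as CPM with exact Poisson intervals. Ratios have exact conditional intervals, and shares have Clopper-Pearson intervals after thinning to 2000 UMIs. A group at 0 was set to 3 counts for a ratio. Called means at least 1.5-fold. The shares and medians over all genes need at least 100 UMIs in both groups together. Counts and medians of the 10 enzymes take in those with fewer, and the report says which. Nothing was tested between conditions. The ratios were tested on simulated Poisson counts. Named genes were the 10 enzymes, the 2 highest and 2 lowest of each list where they are described, 5 fixed regulators (of which Ahrr had too few UMIs to describe), and the 2 genes most alike, of which 1 item is not reported here. Gene positions are from the Gencode M21 annotation of GRCm38. Figures were drawn with matplotlib 3.10.9. The alternatives were adding 1 CPM, centring, equal weight per barcode, other barcode, gate and count limits, 2-fold calls, other thinning and, added after seeing the data, subtracting the T-cell level.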

Additional observations from a re-analysis of the deposited data

Results flagged for a closer look

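The log2 ratio of fibrogenic over normal organoids had opposite signs in FBs and in epithelium for 2 of the enzymes with at least 100 UMIs in each. Fmo1 had opposite signs too, but only 7 and 6 UMIs in the epithelium of normal and fibrogenic organoids. Fmo2 was −0.54 in organoid FBs and 1.18 in organoid epithelium, where it was at 1.27 and 2.88 CPM. The FB gene Col1a1 was also higher in AEC2-like cells of fibrogenic organoids, and the part of FB RNA in this Fmo2 ratio was not tested. Ces1d was −1.02 in organoid FBs, at 2.04 and 1.00 CPM, and 0.41 in organoid epithelium. Each side has 1 library per condition, and the difference between FBs and epithelium was not tested.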

How the results depend on the processing

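No paired analysis was possible because each condition has 1 library. For the same reason no library could be left out, and the spread between mice limits every ratio. Among the planned recalculations of medians, counts and shares, 106 stayed within their range, 12 did not and none turned its direction. Requiring 2-fold left 4 enzymes lower in all FBs after the single dose, 3 in all and 3 in alveolar FBs after repetitive doses, and 0 in organoid epithelium. In that epithelium Fmo2, Cyp1b1 and Inmt stayed past 2-fold higher, at the low levels given above. The shares over all genes are given at 1.5-fold only. These 2-fold counts therefore have no share beside them and are not read as a result about the enzymes. Equal weight per barcode gave medians of −0.51 in all FBs after repetitive doses, 0.39 in organoid epithelium (with 2 enzymes lower) and −1.71 in repetitive-dose MyoFB-like against alveolar FBs, where a stricter MyoFB gate gave −2.87. Centring on the median gene gave −0.67 and −0.57 in all and alveolar FBs after repetitive doses. Without thinning, 5 enzymes in place of 9 had a lower share in alveolar FBs after the single dose. No matching share over all genes is given for this count or for the equal-weight count. Of 540 planned values of single enzymes, 107 left their counting interval and 0 turned direction. With the added alternative below, 502 values stayed, 149 moved and 2 turned direction, both for Fmo1. Subtracting the T-cell level, an alternative chosen after seeing the data, turned it to 0.10 in all FBs and 0.39 in alveolar FBs after the single dose, where it rests on 3 and 1 T-cell UMIs, and moved Ephx1 there to −2.13 and −1.85, where it rests on 0 and 4.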
